A study of Mus musculus with 8 samples.

Results

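The genes described here are the hypoxia-inducible factor (HIF) subunits *Hif1a* and *Epas1*, the tumour suppressor *Vhl*, the prolyl hydroxylases *Egln1*, *Egln2* and *Egln3*, and the hypoxia targets *Vegfa*, *Adm*, *Bnip3* and *Pdk1*. They were chosen by symbol, and all 10 were found among the 53090 genes of the tables. Sciatic nerves of postnatal day 7 (P7) mice were compared between 4 *Nae1* cKO and 4 WT libraries by sequencing of total RNA depleted of ribosomal RNA. *Nae1* cKO mice carried Cre and were homozygous for a floxed *Nae1* allele, so that Cre removed an exon of *Nae1* in Schwann cells, while WT mice were littermates without Cre that carried 1 or 2 floxed alleles. Other cells of the nerve keep *Nae1*, and each library is RNA of whole nerve tissue, so fewer cells of a type and less RNA per cell cannot be told apart. The nerves are named as in the labels: K2, L1, L5 and L8 for *Nae1* cKO, and K1, L3, L4 and L9 for WT, with no statement of what the letters mean. In several genes of this pathway K2 lay far from the remaining *Nae1* cKO nerves, so results that rest on it are given with and without it.

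HIF1α (*Hif1a*) and HIF2α (*Epas1*) are transcription factors that are controlled mainly as proteins. In the presence of oxygen, EGLN enzymes hydroxylate them on prolines, the VHL protein binds the hydroxylated form, and a cullin-RING ligase built on CUL2 with elongins and RBX1 marks it for degradation, a step that needs NEDD8 on the cullin. When oxygen or ligase activity falls, HIFα proteins build up, pair with ARNT and switch on genes for glycolysis, vessel growth and mitophagy. NAE1 is part of the enzyme that activates NEDD8, so the mRNA levels of this pathway in *Nae1* cKO nerves are the question here. Protein levels were not measured in these files.

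HIF dimers bind the short core ACGTG or GCGTG. RefSeq promoter windows (GRCm38.p6, 250 bases before to 50 after the start of the gene) were matched for 9 of the 10 genes, *Epas1* having no entry. Both cores were searched on both strands, so that CACGT and CACGC mark the reverse strand, and CACGTG, which is also an E-box, counts on each strand. At the start farthest upstream, 7 of the 9 windows held at least 1 core, against 43.8% of all 32851 promoter windows. *Egln2* had 6 occurrences, *Bnip3* 5, *Hif1a* 3, *Egln1*, *Adm* and *Pdk1* 2 each and *Egln3* 1, while none was found in the windows of *Vegfa* and *Vhl*. A window at another start of *Vegfa* did hold a core. At least 5 occurrences were held by 1.66% of all windows. The 4 windows below are shown because they belong to a pair of target genes whose mRNA was lower in *Nae1* cKO nerves (*Vegfa*, *Egln1*) and a pair that peaked in a single *Nae1* cKO nerve (*Bnip3*, *Adm*). Capitals mark the cores, and a match is no evidence that a factor binds there.
Vegfa (chr17:46032328-46032627, minus strand): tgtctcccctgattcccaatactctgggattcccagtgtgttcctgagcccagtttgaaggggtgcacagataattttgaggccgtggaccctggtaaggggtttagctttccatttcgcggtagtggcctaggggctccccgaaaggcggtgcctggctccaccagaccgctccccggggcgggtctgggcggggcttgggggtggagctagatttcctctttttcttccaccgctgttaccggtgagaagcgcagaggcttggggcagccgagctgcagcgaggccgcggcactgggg
Egln1 (chr8:124949205-124949504, minus strand): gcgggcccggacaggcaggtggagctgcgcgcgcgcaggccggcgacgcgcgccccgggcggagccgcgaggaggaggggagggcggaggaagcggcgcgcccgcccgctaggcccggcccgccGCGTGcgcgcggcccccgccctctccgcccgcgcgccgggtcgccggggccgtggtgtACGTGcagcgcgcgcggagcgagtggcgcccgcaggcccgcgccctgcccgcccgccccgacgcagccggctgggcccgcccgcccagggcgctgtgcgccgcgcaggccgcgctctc
Bnip3 (chr7:138909457-138909756, minus strand): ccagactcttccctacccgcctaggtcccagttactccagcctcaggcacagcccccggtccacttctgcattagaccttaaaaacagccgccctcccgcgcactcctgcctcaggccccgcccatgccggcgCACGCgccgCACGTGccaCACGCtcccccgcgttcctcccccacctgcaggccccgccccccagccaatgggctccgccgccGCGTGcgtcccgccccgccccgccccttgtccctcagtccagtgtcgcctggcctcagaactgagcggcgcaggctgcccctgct
Adm (chr7:110627407-110627706, plus strand): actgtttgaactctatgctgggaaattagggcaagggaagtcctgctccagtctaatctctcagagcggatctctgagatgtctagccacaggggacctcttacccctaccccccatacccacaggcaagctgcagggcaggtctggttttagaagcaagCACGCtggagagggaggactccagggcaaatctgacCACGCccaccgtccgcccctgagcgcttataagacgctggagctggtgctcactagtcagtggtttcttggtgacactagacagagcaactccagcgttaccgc

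*Hif1a*, *Egln1*, *Egln2* and *Vegfa* were lower in *Nae1* cKO nerves, by 20.3% to 29.0%, and in each of them all *Nae1* cKO nerves lay below all WT nerves. *Vhl* was at nearly the same level in both groups. *Epas1*, *Egln3*, *Bnip3*, *Adm* and *Pdk1* did not pass the test, and *Bnip3*, *Adm* and *Pdk1* had their highest value in the same nerve, *Nae1* cKO K2. Of the 10 genes, all of which were tested, 0 rose and 4 fell at an adjusted p under 0.05 (edgeR's quasi-likelihood test, Benjamini-Hochberg over all 17090 genes tested), and none changed over 2-fold. At an unadjusted p under 0.05, 1 was higher and 4 were lower. DESeq2 and limma-voom also gave 0 higher and 4 lower. Among all genes tested 26.4% were called, 14.1% higher and 12.3% lower, and 6.75% were called with a change over 2-fold. Groups that did not overlap were found in 4 of the 10 genes and in 28.6% of all genes. The median log2 fold change was −0.18 over the 10 genes and 0.0066 over all genes.

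**Figure D1:**
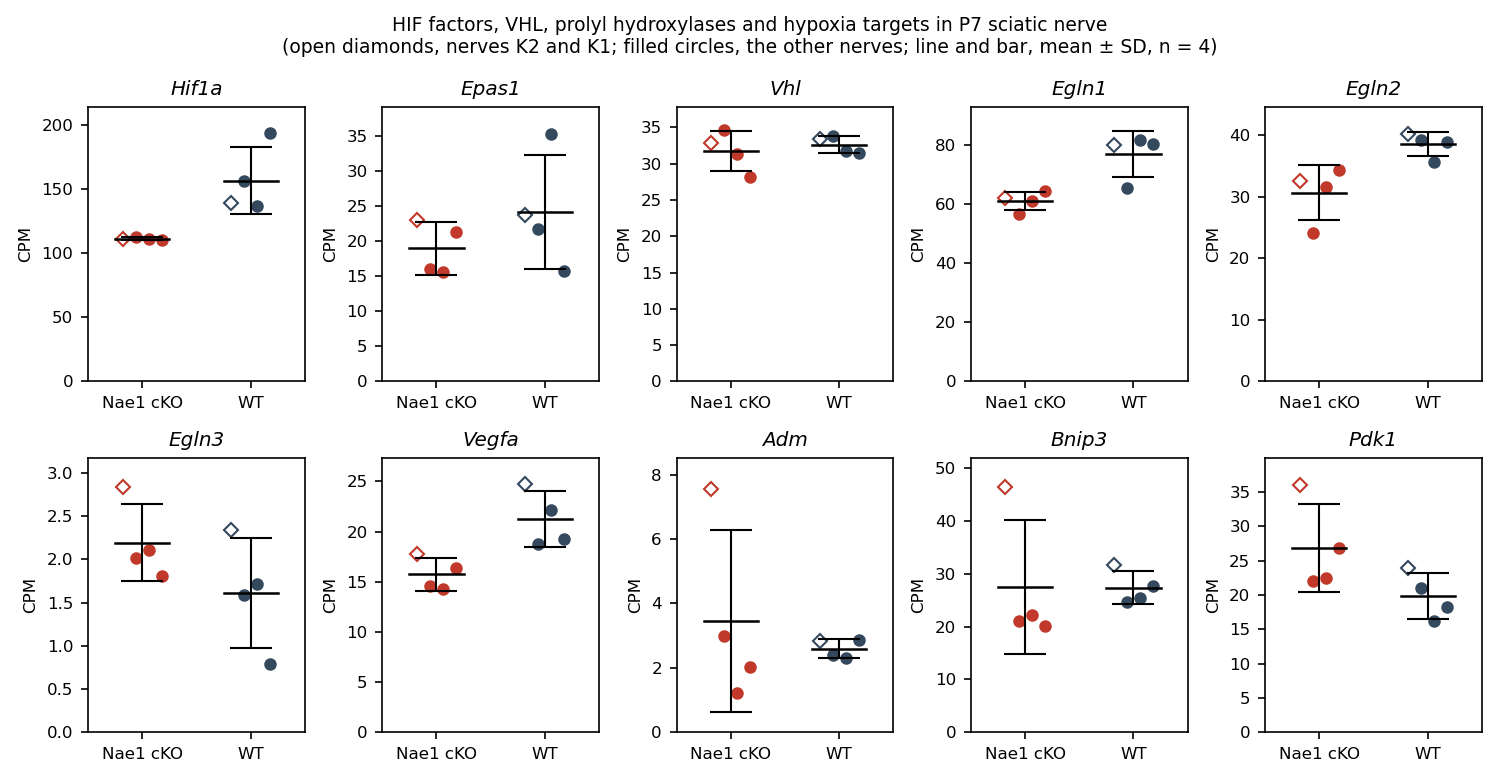
CPM (counts per 1000000 after TMM scaling, y axis from 0) of each of the 10 genes in the 4 *Nae1* cKO nerves (left in each panel) and the 4 WT nerves (right), with the mean and SD. *Hif1a*, *Egln1*, *Egln2* and *Vegfa* do not overlap between the groups, and the open diamond of nerve K2 stands at 46.4 CPM for *Bnip3* and 7.54 CPM for *Adm*, above every other nerve.

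*Hif1a* (ENSMUSG00000021109.13, chr12:73901375-73947530, plus strand, GRCm38), the oxygen-regulated subunit of HIF1, had 111, 113, 111 and 110.1 CPM in *Nae1* cKO nerves K2, L1, L5 and L8, against 139.6, 157, 137 and 194 CPM in WT nerves K1, L3, L4 and L9. The *Nae1* cKO nerves were nearly identical (111.5 ± 1.27 CPM, SD, n = 4), whereas WT nerves were higher and more spread (157 ± 26.4 CPM, n = 4), with L9 at the top. This is a log2 fold change of −0.49 (SE 0.10) and 0.71 times the WT level, with an adjusted p of 0.0038. The call held without each nerve in turn (adjusted p up to 0.0142) and in the nerves of letter L alone (log2 fold change −0.55, adjusted p = 0.0032). It was lost with limma on log2(TPM + 1), where the difference was −0.27, and on log2(FPKM + 1), where it was −0.25. Of the 8 nerves, 7 had a fractional expected count for *Hif1a*, that is, some fragments were shared out among genes by RSEM, and a protein-coding gene on the same strand (Gm49321) and an antisense gene (Gm15283) overlap it.

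*Epas1* (ENSMUSG00000024140.9, chr17:86753700-86833410, plus strand) encodes HIF2α, which is prominent in endothelial cells. It had 23.1, 16.0, 15.6 and 21.4 CPM in *Nae1* cKO nerves, against 23.7, 21.8, 35.3 and 15.8 CPM in WT nerves. The groups overlapped, with WT L4 highest and *Nae1* cKO L5 lowest. The log2 fold change was −0.35 (95% interval −0.85 to 0.16, adjusted p = 0.30). It was −0.11 without WT L4 alone, −0.36 without WT K1 alone and 0.0090 without both, the nerves with most RNA of skeletal muscle. The summed level of 15 muscle markers was 66.4 to 205 CPM in *Nae1* cKO nerves and 137 to 2199 CPM in WT nerves, with 1362 CPM in K1 and 2199 CPM in L4. The part of muscle RNA in the level of *Epas1* was not tested.

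*Vhl* (ENSMUSG00000033933.13, chr6:113623959-113631633, plus strand), the substrate receptor for hydroxylated HIFα, had 32.8, 34.7, 31.3 and 28.2 CPM in *Nae1* cKO nerves, against 33.5, 33.8, 31.8 and 31.5 CPM in WT nerves. The groups overlapped fully. The log2 fold change was −0.04 with a 95% interval of −0.23 to 0.15, which covers levels of 0.852 to 1.11 times that of WT, and its sign turned with other scalings (0.12 with library totals and 0.14 on log2(TPM + 1)).

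Of the prolyl hydroxylases, *Egln1* and *Egln2* fell, while *Egln3*, which was far less abundant, did not pass the test. Whether their changes differed from each other was not tested. *Egln1* (ENSMUSG00000031987.6, chr8:124908587-124949324, minus strand) encodes PHD2, the main oxygen sensor for HIF1α and itself a HIF target. It had 62.0, 56.6, 61.0 and 64.2 CPM in *Nae1* cKO nerves, against 79.9, 65.2, 81.6 and 80.2 CPM in WT nerves. The *Nae1* cKO nerves all lay below the WT nerves, of which L3 was closest to them. *Egln1* fell by 0.33 on the log2 scale (SE 0.088) with an adjusted p of 0.0144, and adjusted p stayed between 0.0035 and 0.0471 without each nerve in turn, but was 0.17 without WT K1 and L4 together (log2 fold change −0.26). The call was also lost with library totals in place of TMM (−0.17, adjusted p = 0.15) and with limma on log2(TPM + 1) (−0.19, 0.74) and log2(FPKM + 1) (−0.16, 0.21).

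*Egln2* (ENSMUSG00000058709.11, chr7:27158658-27166802, minus strand), which encodes PHD1, had 32.5, 24.2, 31.7 and 34.4 CPM in *Nae1* cKO nerves, against 40.3, 39.3, 35.7 and 38.9 CPM in WT nerves. *Nae1* cKO L1 was the lowest, and the closest nerves of the groups were 34.4 and 35.7 CPM. It fell by 0.33 on the log2 scale (SE 0.11) with an adjusted p of 0.0452, the weakest of the 4 calls. It was lost without *Nae1* cKO L1 (adjusted p = 0.0938) or L5 (0.0819), without any single WT nerve (0.0531 to 0.1097) and in the nerves of letter L alone (0.0667). It was smaller and not called with library totals (−0.18, adjusted p = 0.24) and with limma on log2(TPM + 1) (−0.18, 0.75) and log2(FPKM + 1) (−0.15, 0.24). The gene *Cyp2t4* overlaps it on the other strand, and whether the counting used strand is not stated in the sources used here.

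*Egln3* (ENSMUSG00000035105.5, chr12:54178981-54203860, minus strand) encodes PHD3, a HIF target in many cells. It was the least abundant of the 10 genes per kilobase, with CPM values of 2.84, 2.02, 2.11 and 1.81 in *Nae1* cKO nerves, against 2.34, 1.59, 1.72 and 0.795 in WT nerves. These levels rest on 26 to 38 counts per *Nae1* cKO nerve and 10 to 32 counts per WT nerve. The groups overlapped and the log2 fold change of 0.43 (95% interval −0.22 to 1.09, adjusted p = 0.32) was within the spread of the nerves.

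*Vegfa* (ENSMUSG00000023951.17, chr17:46016993-46032369, minus strand), the ligand that drives endothelial growth, had 17.8, 14.6, 14.3 and 16.4 CPM in *Nae1* cKO nerves, against 24.8, 18.8, 22.2 and 19.2 CPM in WT nerves. *Nae1* cKO K2 and WT K1 were the highest of their groups. *Vegfa* fell by 0.43 on the log2 scale (SE 0.12) with an adjusted p of 0.0199, to 0.741 times the WT level. It was −0.42 (adjusted p = 0.0188) in the nerves of letter L. The call was lost without *Nae1* cKO L1 (adjusted p = 0.0582) or L5 (0.0682), or without WT K1 (0.0682) or L4 (0.0512), with log2 fold changes of −0.35 to −0.50 over all single nerves left out. *Vegfa* was also smaller and not called with library totals (−0.28, adjusted p = 0.0881), with limma on log2(TPM + 1) (−0.27, 0.57) and log2(FPKM + 1) (−0.26, 0.13), and without WT K1 and L4 together (−0.28, 0.24). Markers of endothelial cells, which VEGFA acts on, summed to 236 to 281 CPM in *Nae1* cKO nerves and 299 to 367 CPM in WT nerves over 12 genes. The VEGF receptors *Kdr* and *Flt1* are among these markers. Of the 12, 0 rose and 4 fell (33.3% called, against 26.4% of all genes tested, with 12.3% of all genes lower). None of the 12 was at 0 in any nerve. Markers of Schwann cells summed to 5892 to 6854 CPM in *Nae1* cKO nerves and 13845 to 23273 CPM in WT nerves over 8 genes, with myelin genes among them, and those of macrophages to 442 to 573 CPM in *Nae1* cKO nerves and 256 to 290 CPM in WT nerves over 12 genes. The part of these cell types in the level of *Vegfa* or the HIF genes was not tested.

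*Adm* (ENSMUSG00000030790.15, chr7:110627661-110629820, plus strand), which encodes the vasodilator peptide adrenomedullin, had 7.54, 2.996, 1.22 and 2.02 CPM in *Nae1* cKO nerves, against 2.85, 2.39, 2.295 and 2.86 CPM in WT nerves. K2 lay far above all WT nerves and L1 just above them, while L5 and L8 lay below them. An antisense gene (Gm28863) overlaps *Adm*. Its log2 fold change of 0.40 (95% interval −0.66 to 1.45, adjusted p = 0.59) turned to −0.33 (adjusted p = 0.42) without K2.

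*Bnip3* (ENSMUSG00000078566.8, chr7:138890836-138909519, minus strand), a mitochondrial protein that promotes mitophagy, had 46.4, 21.1, 22.2 and 20.1 CPM in *Nae1* cKO nerves, against 31.6, 24.7, 25.4 and 27.7 CPM in WT nerves. K2 was above all WT nerves, while the other 3 *Nae1* cKO nerves were below all of them. With all nerves the log2 fold change was 0.0030 (95% interval −0.59 to 0.60, adjusted p = 0.995). Without K2 it was −0.38 (SE 0.10, adjusted p = 0.0139), which passes the test, in a fit where 14.4% of all genes were called lower and 15.7% higher. Expected counts of *Bnip3* were fractional in 5 nerves, and a processed pseudogene (Gm18258) and an antisense gene (Gm45507) overlap it on the other strand.

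*Pdk1* (ENSMUSG00000006494.11, chr2:71873224-71903858, plus strand), a kinase that holds pyruvate back from mitochondrial oxidation, had 36.0, 22.1, 22.5 and 26.8 CPM in *Nae1* cKO nerves, against 23.9, 21.1, 16.1 and 18.3 CPM in WT nerves. K2 was again the highest *Nae1* cKO nerve, and WT K1 was the highest WT nerve. With all nerves its log2 fold change was 0.43 (SE 0.17) at an adjusted p of 0.0820, and without K2 it was 0.25 (adjusted p = 0.18). It passed the test with the letter of the nerve names as a term (0.42, adjusted p = 0.0098), with library totals in place of TMM (0.58, adjusted p = 0.0127) and with limma on log2(FPKM + 1) (0.55, adjusted p = 0.0212). The median over all genes was 0.16 with library totals, 0.13 on log2(FPKM + 1) and 0.10 on log2(TPM + 1), against 0.0066 with TMM. On deposited TPM, *Pdk1* had 4.38, 5.03, 3.78 and 5.03 in *Nae1* cKO nerves, against 2.97, 2.99, 2.63 and 3.16 in WT nerves, with no overlap (exact permutation, two-sided, unadjusted p = 0.0286, which is the lowest that groups of 4 can give).

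**Figure D2:**
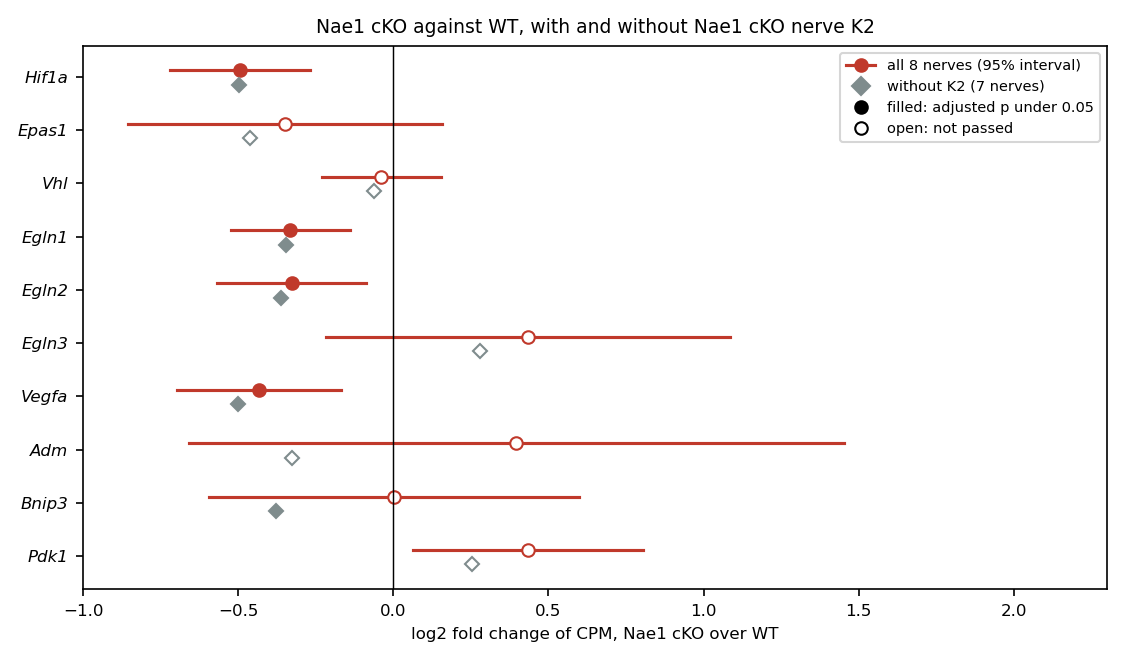
Log2 fold change of CPM, *Nae1* cKO over WT (x axis), of the 10 genes with all 8 nerves (circles, 95% interval) and without *Nae1* cKO nerve K2 (diamonds), filled where the adjusted p was under 0.05. *Hif1a*, *Egln1*, *Egln2* and *Vegfa* lie between −0.49 and −0.33 with all nerves, and *Adm* and *Bnip3* move to −0.33 and −0.38 without K2.

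Per kilobase of effective length, *Hif1a* had the highest group means of the 10 mRNAs. They were 29.5 ± 0.338 CPM per kb in *Nae1* cKO nerves and 41.6 ± 6.99 CPM per kb in WT nerves (SD, n = 4). *Hif1a* was followed by *Egln1* (17.7 ± 0.921 in *Nae1* cKO and 22.3 ± 2.24 in WT), *Egln2* (17.3 ± 2.53 in *Nae1* cKO and 21.7 ± 1.11 in WT) and *Bnip3* (19.4 ± 8.96 in *Nae1* cKO and 19.3 ± 2.21 in WT), whose means over all nerves did not differ from each other beyond their spread. In K2, *Bnip3* was at 32.8 CPM per kb, above *Hif1a* at 29.5 in that nerve. In the other *Nae1* cKO nerves *Bnip3* was at 14.2 to 15.7 and *Egln1* at 16.4 to 18.6. *Vhl* stood at 12.9 ± 1.11 CPM per kb in *Nae1* cKO nerves and 13.2 ± 0.477 in WT nerves, close to *Vegfa* with 9.37 ± 0.974 in *Nae1* cKO and 12.6 ± 1.67 in WT. *Pdk1* (6.23 ± 1.498 in *Nae1* cKO and 4.61 ± 0.782 in WT) and *Epas1* (3.68 ± 0.733 in *Nae1* cKO and 4.68 ± 1.58 in WT) came next and overlapped in WT nerves. *Adm* had 2.89 ± 2.37 CPM per kb in *Nae1* cKO and 2.18 ± 0.250 in WT, and *Egln3* 0.873 ± 0.177 in *Nae1* cKO and 0.641 ± 0.252 in WT. Per kilobase *Hif1a* was 5.32 to 16.8 times the level of *Epas1* in the same nerve.

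On deposited TPM the *Nae1* cKO nerve K2 was again apart, since *Hif1a* had 14.7, 29.2, 23.7 and 22.2 TPM in *Nae1* cKO nerves K2, L1, L5 and L8, against 20.5, 25.9, 25.6 and 36.5 TPM in WT nerves. In CPM K2 and L1 were at 111 and 113. Genes with an RSEM length under 300 bases took 25.2% of the TPM total in K2. This share was 17.4% to 23.3% in the other *Nae1* cKO nerves and 15.6% to 18.3% in WT nerves. Its part in the TPM values was not tested. By the exact permutation test on log2(TPM + 1), *Pdk1* and *Egln3* reached p = 0.0286, both higher in *Nae1* cKO nerves, and the other 8 genes did not. The RSEM length of *Hif1a*, a mean over its transcripts weighted by abundance, was 3836 ± 97.3 bases in *Nae1* cKO nerves and 4010 ± 58.3 bases in WT nerves (SD, n = 4 each, exact permutation p = 0.0571).

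Of 17 other genes that act on HIF, 0 rose and 3 fell (17.6% called, against 26.4% of all genes tested), and the median log2 fold change was −0.04. The falls of *Arnt2* and *Siah2* had larger log2 fold changes than that of any of the 10 genes that fell. *Arnt2*, a partner of HIFα found mainly in neural tissue, was at 96.1 ± 10.3 CPM in *Nae1* cKO nerves and 151 ± 28.2 CPM in WT nerves (SD, n = 4, log2 fold change −0.65, adjusted p = 0.0024). *Siah2*, a ubiquitin ligase that targets prolyl hydroxylases, was at 8.96 ± 0.557 CPM in *Nae1* cKO nerves and 13.6 ± 0.509 CPM in WT nerves (−0.60, adjusted p = 0.0015). *Rbx1*, the RING subunit shared by cullin ligases, was at 45.5 ± 3.31 CPM in *Nae1* cKO nerves and 57.4 ± 5.02 CPM in WT nerves (−0.33, adjusted p = 0.0153), a call lost without WT K1 (0.0542), without WT K1 and L4 (0.0621), with library totals (−0.18, adjusted p = 0.14) and with limma on log2(TPM + 1) (−0.20, 0.72) and log2(FPKM + 1) (−0.17, 0.16). The calls of *Arnt2* and *Siah2* were lost on log2(TPM + 1) (0.19 and 0.40). *Arnt*, the common partner of HIFα, had a log2 fold change of −0.11, *Hif1an*, an asparaginyl hydroxylase that limits HIF activity, 0.04, *Cul2* −0.04 and the elongins *Elob* −0.27 and *Eloc* 0.03, and none of these passed (adjusted p of 0.12 to 0.85). *Hif3a*, which encodes a HIFα paralogue that can oppose the others, had 23.1, 1.11, 1.16 and 2.16 CPM in *Nae1* cKO nerves, against 2.78, 2.17, 3.66 and 1.75 CPM in WT nerves. Its log2 fold change was 1.39 (adjusted p = 0.42) with K2 and −0.82 (adjusted p = 0.0744) without it. Without K2, 1 regulator rose and 4 fell, against 15.7% and 14.4% of all genes, with the 3 calls above kept and those of *Elob* (−0.37, adjusted p = 0.0212) and *Siah1b*, a ubiquitin ligase related to *Siah2* (0.61, adjusted p = 0.0167), gained.

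Other reported HIF targets moved in both directions. Of 40 such genes 35 were tested, 12 rose and 3 fell (42.9% called, against 26.4% of all genes, of which 14.1% were higher and 12.3% lower), and the median log2 fold change was 0.30. *Car9*, *Stc2*, *Epo* and *Nos2* were among those too low to test, and *Car9*, *Epo* and *Nos2* were at 0 in at least 1 nerve. *Igfbp3*, an IGF-binding protein, rose most, with 147, 112, 120.4 and 123 CPM in *Nae1* cKO nerves, against 23.1, 33.6, 22.8 and 14.2 CPM in WT nerves (log2 fold change 2.42, SE 0.22, adjusted p = 4.6e-05). *Slc16a3*, the lactate exporter MCT4, had 16.7, 10.4, 10.2 and 9.27 CPM in *Nae1* cKO nerves, against 6.14, 4.85, 4.23 and 3.10 CPM in WT nerves (log2 fold change 1.34, adjusted p = 0.0012). Groups did not overlap in either gene. *Car12*, a carbonic anhydrase (1.24), and *Ak4*, a mitochondrial adenylate kinase (1.03), also rose over 2-fold, and *Tfrc*, the transferrin receptor (0.84), and *Angptl4*, an inhibitor of lipoprotein lipase (0.86), rose less.

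Among glycolytic targets *Slc2a3* (0.90), *Pfkfb4* (0.53) and *Ldha* (0.50) rose. The call of *Slc2a3* was lost without *Nae1* cKO K2 or L1 or without WT L4 or L9 (adjusted p of 0.0549 to 0.0691). *Hk2* (0.12, adjusted p = 0.71), *Pfkfb3* (0.30, adjusted p = 0.15) and *Slc2a1*, the glucose transporter GLUT1 (0.34, adjusted p = 0.51), did not pass, though *Pfkfb3* did without WT L4 (0.43, adjusted p = 0.0427). The targets that fell were *Ndrg1*, *P4ha1* and *Kdm4b*. *Ndrg1*, a stress gene that myelinating Schwann cells express strongly, had 573, 271, 343 and 329.7 CPM in *Nae1* cKO nerves, against 969, 628, 905 and 711 CPM in WT nerves (−1.08, adjusted p = 0.0103). *P4ha1*, a collagen prolyl hydroxylase, had a log2 fold change of −0.52 and the histone demethylase *Kdm4b* of −0.43, a call lost without *Nae1* cKO L1 or L5 or without WT K1 or L4 (adjusted p of 0.0531 to 0.0729). *Kdm4b* was also not called with library totals (−0.28, adjusted p = 0.0785) or with limma on log2(TPM + 1) (−0.09, 0.89) and log2(FPKM + 1) (−0.07, 0.68). *P4ha2* (0.77), of the same enzyme family as *P4ha1*, and the histone demethylase *Kdm3a* (0.58) rose. With limma on log2(TPM + 1), the calls of *P4ha1*, *Pfkfb4*, *Ldha* and *Kdm3a* were lost (adjusted p of 0.0662 to 0.40).

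**Figure D3:**
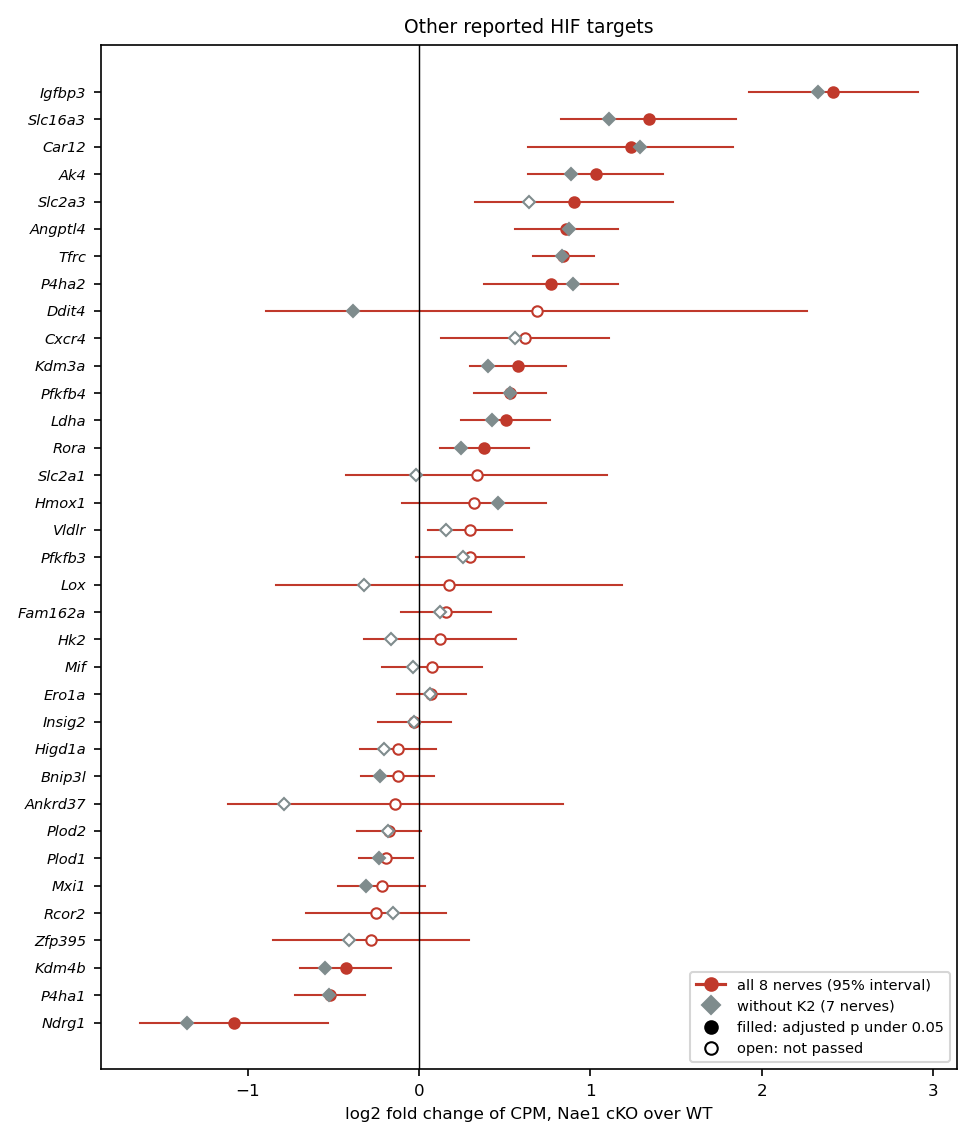
Log2 fold change of CPM, *Nae1* cKO over WT (x axis), of the 35 other reported HIF targets tested, with all 8 nerves (circles, 95% interval) and without *Nae1* cKO nerve K2 (diamonds), filled where the adjusted p was under 0.05. With all nerves 12 genes rose, led by *Igfbp3* at 2.42, and 3 fell, with *Ndrg1* lowest at −1.08.

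Around *Vegfa* and *Adm*, 4 of 13 ligands and receptors rose and 2 fell (46.2% called, against 26.4% of all genes). The VEGF receptor *Kdr* was at 46.6 ± 4.16 CPM in *Nae1* cKO nerves and 67.0 ± 7.54 CPM in WT nerves (log2 fold change −0.53, adjusted p = 0.0018), and the co-receptor *Nrp2* at 140.4 ± 20.7 CPM in *Nae1* cKO nerves and 277 ± 22.3 CPM in WT nerves (−0.98, adjusted p = 4.2e-05). *Nrp1*, the related co-receptor, rose (0.52, adjusted p = 0.0015), as did *Vegfd* (1.23, adjusted p = 0.0103), whose mean level stayed at 1.76 CPM in *Nae1* cKO nerves and 0.737 CPM in WT nerves. *Calcrl*, the receptor for adrenomedullin and the related peptide CGRP, rose (0.43, adjusted p = 0.0072), as did *Ramp1*, the accessory protein that directs it to CGRP (1.58, adjusted p = 0.0083). *Ramp1* had 7.31 CPM in K2 and 2.93 to 3.62 CPM in the other *Nae1* cKO nerves. With limma on log2(TPM + 1), the calls of *Kdr* (−0.33, adjusted p = 0.47), *Nrp1* (0.62, 0.0911) and *Calcrl* (0.38, 0.37) were lost. That of *Kdr* was also lost on log2(FPKM + 1) (−0.32, adjusted p = 0.0634).

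Around *Pdk1*, 1 of 11 kinases, phosphatases and subunits of the pyruvate dehydrogenase system rose and 2 fell (27.3% called, close to the 26.4% of all genes). *Pdp2*, a phosphatase that reactivates the complex, had 20.8, 15.2, 14.1 and 17.6 CPM in *Nae1* cKO nerves, against 38.3, 34.7, 37.1 and 35.3 CPM in WT nerves (log2 fold change −1.10, adjusted p = 3.6e-05). The other phosphatase *Pdp1* rose (0.48, adjusted p = 0.0152) and the kinase *Pdk2* fell (−0.60, adjusted p = 0.0419). *Pdp1* lost its call without WT L4 (0.0513), and *Pdk2* without *Nae1* cKO L1 or L5 or without WT K1, L4 or L9 (0.0588 to 0.137). *Pdk4*, the kinase induced by fasting, had 29.6, 6.90, 7.61 and 10.5 CPM in *Nae1* cKO nerves, against 6.21, 4.34, 4.66 and 5.56 CPM in WT nerves. The groups did not overlap, yet the adjusted p was 0.0763 with all nerves (1.39) and 0.0141 without K2 (0.68).

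Nerve K2 stood apart in this pathway and in others. It was the highest of the 4 *Nae1* cKO nerves in 6 of the 10 genes and 24 of the 35 tested targets (68.6%), against 35% of all genes tested. It exceeded the next *Nae1* cKO nerve over 1.5-fold in 2 of the 10 genes and 7 of the 35 targets (20%), against 5.04% of all genes. Some marker lists showed such an excess too, and others did not. Nerve K2 was highest, and over 1.5-fold above the next, in 78.6% and 50% of 14 tested muscle markers, 80% and 40% of 5 perineurial markers (with *Slc2a1* among them) and 66.7% and 33.3% of 12 macrophage markers, and it was highest in 75% of 8 Schwann cell markers but over 1.5-fold above the next in 0 of them. Of 3 tested erythroid markers these shares were 66.7% and 33.3%. K2 was highest in 25% of 12 endothelial, 25% of 8 mural, 37.5% of 8 fibroblast and 0% of 4 adipocyte markers. It was over 1.5-fold above the next in 12.5% of the fibroblast markers and 0% of the endothelial, mural and adipocyte markers. The part of these cell types in the values of K2 was not tested. Among the HIF targets, *Ddit4*, a stress-induced inhibitor of mTORC1, had 73.8 CPM in K2, against 12.8 to 15.3 CPM in the other *Nae1* cKO nerves, and lysyl oxidase (*Lox*) 232 CPM in K2, against 76.3 to 95.9 CPM. *Slc2a1* had 52.8 CPM in K2 and 23.0 to 28.5 CPM in the other *Nae1* cKO nerves. WT K1, the only other nerve with the letter K, was the highest WT nerve in 17 of the 35 targets (48.6%), against 23.9% of all genes.

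The same nerve was high in genes induced by glucocorticoids, a list of 12 drawn up after the values of K2 had been seen. All 12 were highest in K2 among *Nae1* cKO nerves, each over 1.5-fold above the next, with a median log2 ratio of 2.25 to the other *Nae1* cKO nerves, against −0.0052 over all genes. Because the list was chosen with these values known, its count and ratio in K2 are a description and no test. *Zbtb16* had 50.3 CPM in K2 and 0.272 to 0.697 CPM in the other *Nae1* cKO nerves, *Fkbp5* 93.1 CPM in K2 and 17.8 to 21.2 CPM, and *Tsc22d3* 103 CPM in K2 and 18.1 to 18.8 CPM. All 12 were also highest in K1 among WT nerves, with a median log2 ratio of 0.37. *Ddit4* and *Pdk4* are known to respond to glucocorticoids as well as to hypoxia. Oxygen supply, stress hormones and handling of the animals were not measured in these files, and their part in the values of K2 was not tested. In K2 the nuclear RNA 7SK took 4.70% of counts (1.94% to 2.66% in the other 7 nerves) and mitochondrial genes 1.54% (2.19% to 4.23% in the others).

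**Figure D4:**
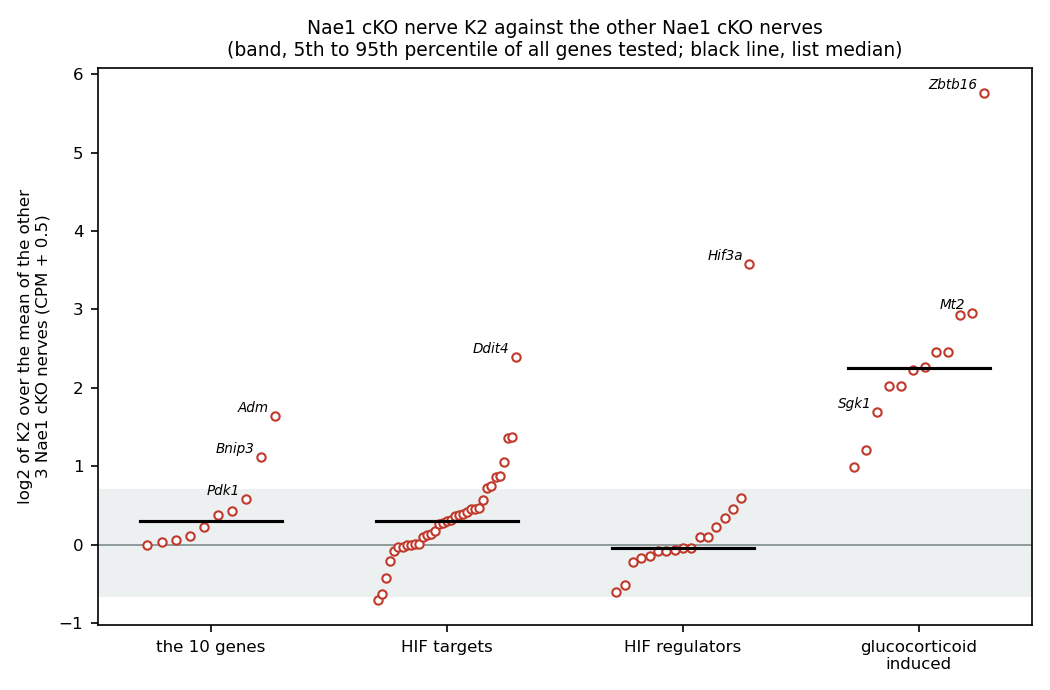
Log2 ratio of CPM (plus 0.5) in *Nae1* cKO nerve K2 to the mean of the other 3 *Nae1* cKO nerves (y axis), for the 10 genes described and for lists of HIF targets, HIF regulators and glucocorticoid-induced genes (x axis, each point a gene, sorted), with list medians and the 5th to 95th percentile of all genes as a band from −0.66 to 0.69. Above the band lie 2 of the 10 genes (*Adm* and *Bnip3*), 8 of the 35 HIF targets (*Ddit4* highest), 1 of the 17 regulators (*Hif3a*) and all 12 glucocorticoid-induced genes. The glucocorticoid-induced list was drawn up after the values of K2 had been seen.

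Leaving K2 out, 0 of the 10 genes rose and 5 fell, the 4 calls above being kept and *Bnip3* added. Of the 35 targets 12 rose and 7 fell, against 15.7% higher and 14.4% lower among all genes in that fit, and the median log2 fold change was 0.06. Of the 15 targets called with all nerves, 14 were kept, and *Slc2a3* was lost (adjusted p = 0.0549). *Ddit4* was at −0.39 (adjusted p = 0.0317) without K2 and at 0.69 (adjusted p = 0.51) with all nerves, and *Hk2* and *Lox* were at −0.16 and −0.32 without passing the test.

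Depth was 12962798 to 14766770 expected counts per nerve. *Nae1* itself was at 51.8 ± 6.56 CPM in *Nae1* cKO nerves and 82.9 ± 5.07 CPM in WT nerves (SD, n = 4, log2 fold change −0.68, adjusted p = 2.8e-04), in the direction of the labels. No pair of nerves of a group agreed within sampling noise, with chi-square values per gene of 4.08 to 56.6.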

How the data were processed

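Whole sciatic nerves were the source of the RNA, and libraries were stranded and free of most ribosomal RNA. Each of the 8 nerves has a gene table from RSEM, in which the authors deposited expected counts (estimated numbers of fragments, with fractions where fragments fit several genes). The deposited TPM values have a fixed total in each nerve, and the deposited FPKM values are divided by gene length and by mapped fragments. STAR, RSEM, FastQC 0.11.5 and build GRCm38 appear in the processing notes of the submitters, whereas the paper's methods describe TopHat and Cuffdiff with mm10. Neither the strand setting of the counting nor the release of the annotation is given in the sources used here.

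Expected counts were rounded, filtered by filterByExpr (17090 genes), scaled by TMM and tested with edgeR 4.0.16 (R 4.3.3; quasi-likelihood, robust, no covariates, Benjamini-Hochberg over all genes). Calls are at an adjusted p under 0.05, and levels are CPM after TMM. Standard errors are the absolute log2 fold change over the square root of F, and intervals are 95% and unadjusted. TPM was compared by exact permutation tests. Alternatives used DESeq2 1.42.0, limma 3.58.1, other scalings, filters and units, the letter of the names, and left-out nerves. In 1 simulated data set of 16833 genes, 4 against 4, calls included 75 of 100 genes set to change 2-fold and 96 of 99 set to change 4-fold, and 16 of the 187 calls were false. In the data 26.4% of genes were called, and the 4 falls were smaller than 2-fold. The simulation therefore gives no rate of recovery or of false calls for changes of that size. Coordinates are from GENCODE vM21, and promoters from RefSeq.

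The genes and lists were chosen with earlier results of these data known. Genes named are the 10, up to 6 of each other list with the smallest adjusted p, those past 2-fold, named pathway genes, and list genes that did not pass; the glucocorticoid list, genes singled out for nerve K2 and further called HIF targets were chosen after their values were seen. Nothing in the labels says whether nerves were pooled, so p-values measure the spread between these nerves.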

Additional observations from a re-analysis of the deposited data

Results flagged for a closer look

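Among 106 groups of 4 nerves (each gene named from the lists, in each genotype), 11 had a nerve far from the other 3. The rule flags about 1 in 20 independent groups by chance. These groups share the same 8 nerves, so the count cannot be set against that rate. Of the 11 flagged, 9 were *Nae1* cKO nerve K2, and *Ddit4* and *Lox* among them had been singled out for their level in that nerve. K2 was high for *Bnip3* (46.4 CPM, against 20.1 to 22.2 CPM in the others), *Hif3a* (23.1 CPM, against 1.11 to 2.16 CPM), *Slc16a3* (16.7 CPM, against 9.27 to 10.4 CPM), *Ddit4* (73.8 CPM, against 12.8 to 15.3 CPM), *Lox* (232 CPM, against 76.3 to 95.9 CPM), *Ramp1* (7.31 CPM, against 2.93 to 3.62 CPM) and *Pdk4* (29.6 CPM, against 6.90 to 10.5 CPM). It was low for *Siah2* (8.13 CPM, against 9.13 to 9.31 CPM) and for *Dld*, a subunit of pyruvate dehydrogenase (50.9 CPM, against 64.7 to 67.4 CPM). In WT, nerve L3 was low for *Egln1* (65.2 CPM, against 79.9 to 81.6 CPM) and L4 for *Kdm3a* (78.7 CPM, against 86.8 to 88.0 CPM).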

How the results depend on the processing

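The 4 falls kept their direction under all 21 alternatives, with log2 fold changes of −0.66 to −0.25 for *Hif1a*, −0.40 to −0.16 for *Egln1*, −0.39 to −0.15 for *Egln2* and −0.50 to −0.26 for *Vegfa*. Of the 10 genes, 2 were called with library totals, where the median of all genes moved to 0.16, 0 with limma on log2(TPM + 1) (median of all genes 0.10), 1 with limma on log2(FPKM + 1) and on log2(FPKM + 0.1), both times *Pdk1*, 1 without WT K1 and L4, and 2 to 5 without each nerve in turn. Of all genes, 30% were called with library totals, 25.7% and 25.5% on the FPKM scales, 13.5% without WT K1 and L4 and 20.6% to 30.1% without each nerve. The median of all genes was 0.13 on log2(FPKM + 1) and 0.16 on log2(FPKM + 0.1). The causes were not tested.

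On log2(TPM + 1), where 10.1% of all genes were called, against 26.4% with edgeR on counts, the calls were 0 for HIF regulators, 9 for HIF targets and 3 for the VEGF and adrenomedullin family. Calls among PDK and PDH genes were 5 with DESeq2 (27.9% of all genes) and with the letter as a term (30.8%) and 1 without WT K1 and L4. Leaving out each nerve gave 2 to 5 calls for the regulators and 1 to 5 for the PDK and PDH genes.

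These log2 fold changes had the opposite sign. With library totals, *Vhl* was at 0.12, *Arnt* at 0.048 and *Cul2* at 0.11. On log2(TPM + 1) they were 0.14, 0.10 and 0.17. On log2(FPKM + 1) they were 0.16, 0.13 and 0.20, with *Pdha1* at 0.011, and on log2(FPKM + 0.1) 0.18, 0.14 and 0.22, with *Pdha1* at 0.011. *Bnip3* was at −0.0030 with DESeq2, −0.090 with limma-voom, −0.0045 with DESeq2 size factors, −0.0036 with no filter and −0.073 with the letter as a term. In the nerves of letter L, *Bnip3* was at −0.30, *Adm* at −0.28, *Hif3a* at −0.78, *Hk2* at −0.14, *Ddit4* at −0.30 and *Lox* at −0.041. Without WT K1 and L4, *Epas1* was at 0.0090 and *Eloc* at −0.049. Leaving out each nerve gave ranges of −0.38 to 0.13 for *Bnip3*, −0.33 to 0.68 for *Adm*, −0.82 to 1.75 for *Hif3a*, −0.021 to 0.59 for *Slc2a1*, −0.16 to 0.25 for *Hk2*, −0.39 to 0.93 for *Ddit4*, −0.32 to 0.45 for *Lox*, −0.0090 to 0.12 for *Eloc*, −0.083 to 0.0145 for *Vhl* and −0.12 to 0.0244 for *Cul2*.

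A fit with the letter as a term changed no call among the 4 falls. No paired analysis was possible because the genotypes share no replicate number. Depth limits *Egln3* and *Adm*, which rest on 10 to 38 and 18 to 101 counts per nerve.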
